A study of Homo sapiens with 9 samples.

Results

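The genes described here are imprinted genes, chosen by symbol from a list of 10: H19, DLK1, MEG3, PEG10, PEG3, MEST, SNRPN, NNAT, GRB10 and PLAGL1. The deposited count table held rows for 8 of them among its 21229 genes, and all 8 were among the 16232 genes tested. H19 and PEG3 were not analysed here. The study made blood-forming cells from the established human embryonic stem cell line H1 and measured their transcriptomes by strand-specific RNA sequencing. Its 9 libraries fall into 3 groups of 3. The first carried GATA2 overexpression and was CD90+, the next was a control genotype that was CD90+, and the last was a control genotype that was CD38+. GATA2 is a transcription factor of blood stem and progenitor cells, CD90 (encoded by THY1) is a surface protein of immature blood cells, and CD38 is a surface enzyme of more committed ones. How GATA2 was overexpressed is not given in the sources used here. Separate cultures behind the 3 libraries of a group are not named in the labels, so every p-value measures the spread between these libraries, which may be technical.

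An imprinted gene is one whose maternal and paternal copies are not used equally, because marks of DNA methylation set in the egg or the sperm are kept at control regions after fertilisation. Imprinted genes lie in clusters, in which coding genes and long noncoding RNAs are often read from opposite parental chromosomes. Many of them act on fetal and placental growth, and in mouse the Dlk1 cluster is known for its part in fetal blood stem cells. The counts used here add both parental copies, so they give the level of each transcript and not its parental origin.

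Total counts per library were between 37500192 and 47261093. GATA2 averaged 376 ± 12.8 CPM (counts scaled to a common library total, with TMM factors) in GATA2-overexpressing CD90+ cells, 87.3 ± 1.93 CPM in control CD90+ cells and 569 ± 16.3 CPM in control CD38+ cells (SD, n = 3 each), so it was 4.31-fold above control CD90+ cells but 1.51-fold below control CD38+ cells. THY1 averaged 3.06 CPM in overexpressing CD90+ cells, 4.43 CPM in control CD90+ cells and 0 in control CD38+ cells, with 0 counts in all 3 CD38+ libraries. CD38 averaged 2.23 CPM in overexpressing CD90+, 4.37 CPM in control CD90+ and 122 CPM in control CD38+ cells. The blood progenitor gene CD34 was between 385 and 391 CPM in overexpressing CD90+ libraries, between 122 and 123 CPM in control CD90+ libraries and between 13.9 and 16.3 CPM in control CD38+ libraries. PTPRC, the leukocyte common antigen, was detected in all 9 libraries, between 31.1 and 295 CPM.

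In the comparison of control CD90+ with control CD38+ cells, 5 of the 8 imprinted genes were higher in CD90+ cells (DLK1, MEG3, MEST, NNAT and PEG10), GRB10 and SNRPN were lower, and PLAGL1 did not pass the test. That is 7 of 8 called at an adjusted p under 0.05, beside 80.4% of all genes tested, so the count of calls does not set these genes apart. At 2-fold or more, 5 of 8 were higher and 1 was lower, beside 22.6% and 13.6% of all genes. With GATA2 overexpression, against control CD90+ cells, DLK1, GRB10, MEST, NNAT, PLAGL1 and SNRPN were higher while MEG3 and PEG10 were lower, with PLAGL1 turning lower when libraries were scaled by total counts alone. All 8 passed, beside 77.6% of all genes. At 2-fold or more, 2 were higher and 2 were lower, beside 7.98% and 21.4% of all genes. Against control CD38+ cells, 6 were higher and 1 was lower in overexpressing cells, beside 43.3% and 39.9% of all genes, which is 7 of 8 called beside 83.2%. At 2-fold or more, 5 were higher and none lower, beside 23% and 21.2% of all genes. The libraries of the compared groups did not overlap for 7 of 8 members in each of the 3 comparisons, beside 82.8%, 80.4% and 83% of all genes. The 3 comparisons share their groups, so their values are given side by side and not as separate evidence. With scaling by total counts alone, the all-gene median log2 fold change was 0.44 for control CD90+ over control CD38+, -0.29 for overexpressing over control CD90+ and 0.23 for overexpressing over control CD38+, against 0.03, -0.04 and 0.07 with TMM factors. The share of calls that were higher then came to 71.2%, 35.5% and 58.0% in those comparisons, against 51.2%, 49.0% and 52.1%, so small differences are read relative to these shifts. In bulk RNA, fewer cells of a type and less RNA per cell cannot be told apart.

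**Figure D1:**
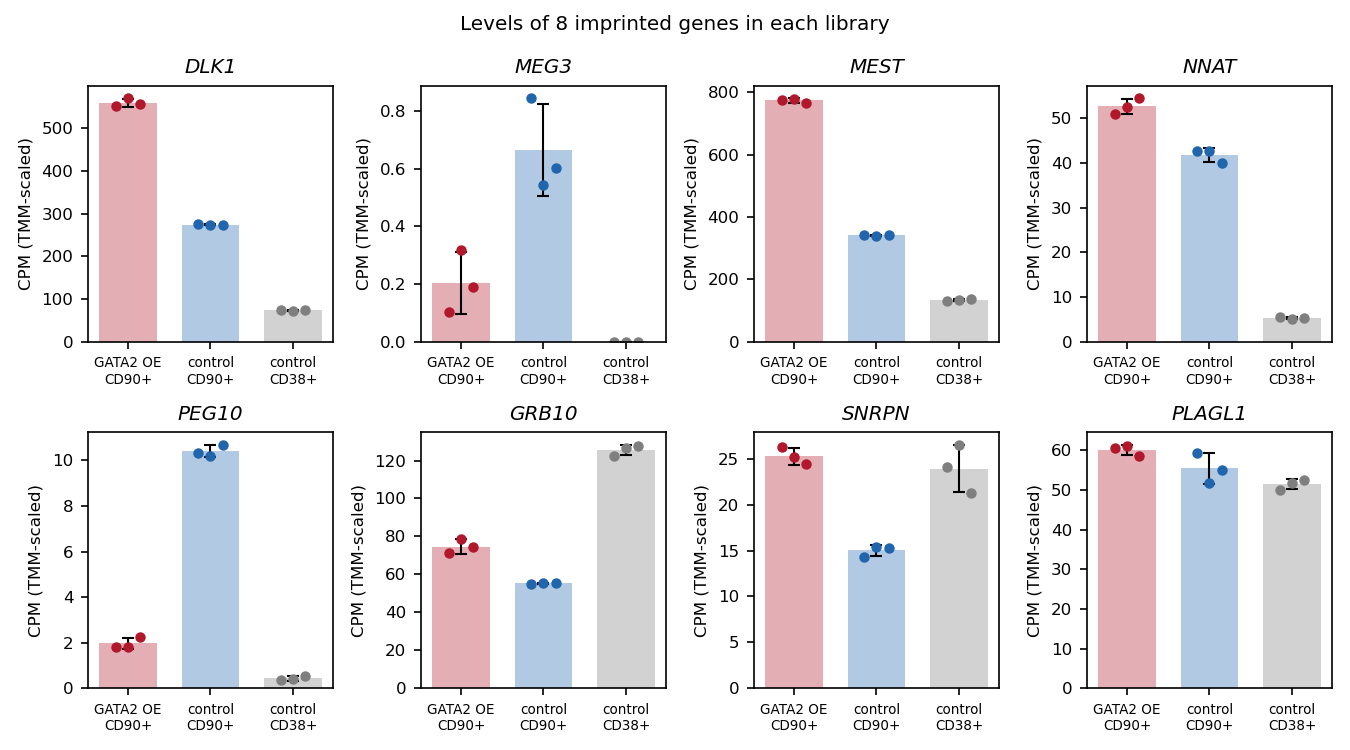
Level of each of the 8 imprinted genes in CPM on a linear axis from 0, with a point for each library, bars for the group means and whiskers for the SD (n = 3 per group). DLK1, MEST and NNAT were highest in GATA2-overexpressing CD90+ cells, MEG3 and PEG10 in control CD90+ cells and GRB10 in control CD38+ cells.

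DNA methylation is placed at CpG dinucleotides, and those near each gene's start were counted. Whether these start windows lie in the control regions that keep an imprint was not tested. RefSeq (build GRCh38.p14) gave start windows, from 250 bases before to 50 bases after the start, for 5 of the 8 genes: GRB10, MEG3, MEST, PLAGL1 and SNRPN. Where a gene had several starts, the window with most CpGs was taken. The windows of 3 genes are shown because the data put them on different sides: MEST was higher in CD90+ cells, GRB10 was lower, and MEG3 had no count at all in CD38+ cells. CpGs are in capitals, and each sequence runs 5′ to 3′ on the gene's own strand.
MEST, chr7:130491835-130492134, plus strand: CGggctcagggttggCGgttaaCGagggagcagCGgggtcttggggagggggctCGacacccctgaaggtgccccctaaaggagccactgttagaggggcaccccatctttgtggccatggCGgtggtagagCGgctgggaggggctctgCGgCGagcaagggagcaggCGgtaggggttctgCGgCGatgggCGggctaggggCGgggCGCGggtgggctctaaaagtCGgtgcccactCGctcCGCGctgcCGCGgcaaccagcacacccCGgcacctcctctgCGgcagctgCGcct
GRB10, chr7:50792825-50793124, minus strand: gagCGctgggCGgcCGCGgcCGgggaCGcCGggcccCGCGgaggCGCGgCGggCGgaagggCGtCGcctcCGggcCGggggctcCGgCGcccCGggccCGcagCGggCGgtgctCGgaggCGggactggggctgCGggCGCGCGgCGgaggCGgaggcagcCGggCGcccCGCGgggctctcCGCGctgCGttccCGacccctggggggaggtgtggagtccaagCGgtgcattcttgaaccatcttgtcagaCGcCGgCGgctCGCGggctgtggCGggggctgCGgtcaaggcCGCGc
MEG3, chr14:100825858-100826157, plus strand: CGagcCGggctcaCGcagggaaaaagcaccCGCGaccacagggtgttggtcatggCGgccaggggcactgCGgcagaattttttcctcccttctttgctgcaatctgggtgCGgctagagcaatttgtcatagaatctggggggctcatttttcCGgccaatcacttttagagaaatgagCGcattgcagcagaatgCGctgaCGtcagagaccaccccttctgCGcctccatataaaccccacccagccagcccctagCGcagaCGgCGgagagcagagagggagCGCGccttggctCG
The GRB10 window held 49 CpGs, a number reached by 1.97% of 27305 genes. The MEST window held 25, reached by 35.6% of genes, and the MEG3 window held 19, reached by 46.4%. PLAGL1 and SNRPN, not printed, had 39 and 18, beside a median of 16 over all genes. GATA sites, searched on both strands as AGATAA or as AGATAG, and likewise as TGATAA or as TGATAG, were in 24.3% of the genes' windows and in none of these 5. The MEG3 window held a cyclic AMP response element, TGACGTCA, which 1.98% of genes have, and a TATAAA, which 11.5% have, both searched on both strands. A match or its absence describes these letters and says nothing of binding.

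DLK1 and MEG3 lie in 1 cluster on chromosome 14 (GRCh38, GENCODE 29). DLK1, at 100725705 to 100738224 on the plus strand, encodes a membrane protein related to Notch ligands, is expressed from the paternal copy and marks fetal liver progenitors. DLK1 had 553, 570 and 556 CPM in overexpressing CD90+ libraries, 276, 273 and 274 CPM in control CD90+ libraries, and 74.7, 72.3 and 75.2 CPM in control CD38+ libraries. No library of one group came near another group's range. DLK1 was 3.70-fold higher in control CD90+ than in control CD38+ cells (log2 fold change 1.89, SE 0.026, adjusted p = 1.74e-19, from the quasi-likelihood test of edgeR, Benjamini-Hochberg adjusted). It was a further 2.04-fold higher with GATA2 overexpression than in control CD90+ cells (log2 fold change 1.03, SE 0.023, edgeR adjusted p = 2.20e-16). DLK1 in overexpressing cells was 7.55-fold above control CD38+ cells.

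MEG3, at 100779410 to 100861031 on the plus strand, is a long noncoding RNA expressed from the maternal copy. It was rare in every group. MEG3 had 4, 12 and 7 counts in overexpressing CD90+ libraries, 43, 30 and 30 counts in control CD90+ libraries, and 0 counts in each control CD38+ library. The groups did not overlap, and MEG3 ran opposite to DLK1 between the CD90+ groups: it was 3.23-fold lower with overexpression (log2 fold change -1.69, SE 0.49, edgeR adjusted p = 0.00580, and between 0.00181 and 0.0353 over 17 alternatives). A count of 0 over the 3 CD38+ libraries allows up to 0.0261 CPM, taking 3 counts over the group and counting error only. Against that floor MEG3 was at least 25.5-fold higher in control CD90+ cells and at least 7.81-fold higher in overexpressing CD90+ cells. MEG3 would not have passed the filter on low counts without the control CD90+ libraries. Its calls against that group therefore had to come out as differences and lend no weight to the counts of called genes above. Its call in overexpressing over control CD38+ cells rests on 23 counts against 0.

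DIO3, the thyroid hormone deiodinase at the far end of the same cluster, is below the 5 CPM set for naming neighbours and was chosen after its values were seen. DIO3 had 38, 34 and 22 counts in overexpressing CD90+ libraries, 130, 96 and 80 counts in control CD90+ libraries, and 0 in each control CD38+ library. It was therefore ordered as MEG3 was, not as DLK1, and was 2.37-fold lower with overexpression than in control CD90+ cells (edgeR adjusted p = 0.00113).

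MEST and NNAT are paternally expressed genes for proteins of the endoplasmic reticulum. MEST, on chromosome 7 at 130486171 to 130506465 (plus strand), encodes a hydrolase-like protein first known from embryonic mesoderm. MEST had 776, 779 and 765 CPM in overexpressing CD90+ libraries, 341, 338 and 343 CPM in control CD90+ libraries, and 131, 134 and 136 CPM in control CD38+ libraries. The 3 groups stood apart in the same order as for DLK1. MEST was 2.27-fold higher in overexpressing than in control CD90+ cells (log2 fold change 1.18, SE 0.023, edgeR adjusted p = 2.88e-17). It was 2.55-fold higher in control CD90+ than in control CD38+ cells (log2 fold change 1.35, SE 0.024, edgeR adjusted p = 5.28e-18). Exons of MEST share 228 bases with COPG2 and 484 with the antisense RNA MESTIT1 on the other strand, of 4794 in all, and whether the counting used strand is not given in the sources used here. The CpG window printed above lies within the MEST gene, at one of its 5 start windows.

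NNAT, on chromosome 20 at 37521206 to 37523693 (plus strand), encodes neuronatin, a small membrane protein tied to calcium handling, and lies inside its neighbour BLCAP. NNAT had 51.0, 52.5 and 54.5 CPM in overexpressing CD90+ libraries, 42.7, 42.7 and 40.1 CPM in control CD90+ libraries, and 5.48, 5.19 and 5.33 CPM in control CD38+ libraries. Both CD90+ groups were far above CD38+ cells, and the gap between them was small. NNAT was 7.84-fold higher in control CD90+ than in control CD38+ cells (log2 fold change 2.97, SE 0.059, edgeR adjusted p = 2.46e-17) and 9.87-fold higher in overexpressing cells than in control CD38+ cells. With overexpression it was 1.26-fold higher than in control CD90+ cells (log2 fold change 0.33, SE 0.048, edgeR adjusted p = 7.34e-06), a call lost when libraries were scaled by total count alone (log2 fold change 0.084, edgeR adjusted p = 0.111).

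PEG10, on chromosome 7 at 94656325 to 94669695 (plus strand), is a paternally expressed gene derived from a retrotransposon, and its mouse copy is needed to form the placenta. PEG10 had 1.83, 1.83 and 2.26 CPM in overexpressing CD90+ libraries, 10.3, 10.2 and 10.7 CPM in control CD90+ libraries, and 0.346, 0.428 and 0.526 CPM in control CD38+ libraries. Control CD90+ cells were highest, with no overlap between any groups. PEG10 was 5.27-fold lower with overexpression than in control CD90+ cells (log2 fold change -2.40, SE 0.15, edgeR adjusted p = 1.55e-10). It was 23.8-fold higher in control CD90+ than in control CD38+ cells (log2 fold change 4.57, SE 0.18, edgeR adjusted p = 2.71e-13). Its head-to-head neighbour SGCE, an epsilon-sarcoglycan also expressed from the paternal copy, was ordered alike, with 1.84 ± 0.60 CPM in overexpressing CD90+, 5.87 ± 0.32 CPM in control CD90+ and 0.60 ± 0.25 CPM in control CD38+ cells (SD, n = 3 each). Exons of PEG10 and SGCE share 219 bases on opposite strands.

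GRB10 encodes an adaptor protein that binds the insulin and IGF1 receptors and damps their signal, and its imprint depends on tissue. It lies on chromosome 7 at 50590063 to 50793462 (minus strand). GRB10 had 71.0, 78.6 and 74.4 CPM in overexpressing CD90+ libraries, 55.1, 55.5 and 55.5 CPM in control CD90+ libraries, and 122, 127 and 128 CPM in control CD38+ libraries. It was the one gene of the 8 that was highest in CD38+ cells in every library. GRB10 was 2.27-fold lower in control CD90+ than in control CD38+ cells (log2 fold change -1.18, SE 0.037, edgeR adjusted p = 1.04e-14). It was 1.35-fold higher in overexpressing than in control CD90+ cells (log2 fold change 0.43, SE 0.038, edgeR adjusted p = 1.44e-08), and 1.68-fold lower in overexpressing than in control CD38+ cells.

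SNRPN encodes a spliceosome protein and belongs to the Prader-Willi region of chromosome 15, where it lies at 24823637 to 24978723 (plus strand) and is expressed from the paternal copy. SNRPN had 26.3, 25.1 and 24.4 CPM in overexpressing CD90+ libraries, 14.3, 15.4 and 15.3 CPM in control CD90+ libraries, and 24.1, 26.5 and 21.3 CPM in control CD38+ libraries. Control CD90+ cells were lowest, and the other two groups overlapped. SNRPN was 1.59-fold lower in control CD90+ than in control CD38+ cells (log2 fold change -0.67, SE 0.075, edgeR adjusted p = 3.61e-07). It was 1.68-fold higher in overexpressing than in control CD90+ cells (log2 fold change 0.75, SE 0.075, edgeR adjusted p = 9.39e-08). Between overexpressing and control CD38+ cells the log2 difference of 0.08 did not pass (SE 0.075, edgeR adjusted p = 0.327), though it was called with library-size scaling (log2 fold change 0.24, edgeR adjusted p = 0.00703). Of its 3416 exon bases, 814 are shared on the same strand with SNURF, which had between 5 and 14 counts per library, so reads of the shared exons cannot be assigned to one gene with certainty.

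PLAGL1, on chromosome 6 at 143940300 to 144064599 (minus strand), encodes a zinc finger transcription factor that in mouse acts on other imprinted genes. PLAGL1 had 60.6, 61.1 and 58.6 CPM in overexpressing CD90+ libraries, 59.4, 51.8 and 55.0 CPM in control CD90+ libraries, and 50.1, 51.8 and 52.5 CPM in control CD38+ libraries. The 2 CD90+ groups overlapped, and so did the 2 control groups. PLAGL1 was called 1.08-fold higher in overexpressing than in control CD90+ cells (log2 fold change 0.12, SE 0.047, edgeR adjusted p = 0.0327), but with library-size scaling the direction flipped (log2 fold change -0.13, edgeR adjusted p = 0.0168), and the call was lost under 8 other alternatives. Leaving out 1 library ended it for control CD90+ replicate 2 (edgeR adjusted p = 0.185) and replicate 3 (0.0733) and for overexpressing replicate 1 (0.0555) and replicate 2 (0.0685). Between control CD90+ and control CD38+ cells the log2 difference of 0.11 did not pass (edgeR adjusted p = 0.0506), and it passed under 11 of 18 alternatives. Only overexpressing against control CD38+ cells held throughout those 18, at 1.17-fold higher (edgeR adjusted p = 4.13e-04).

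**Figure D2:**
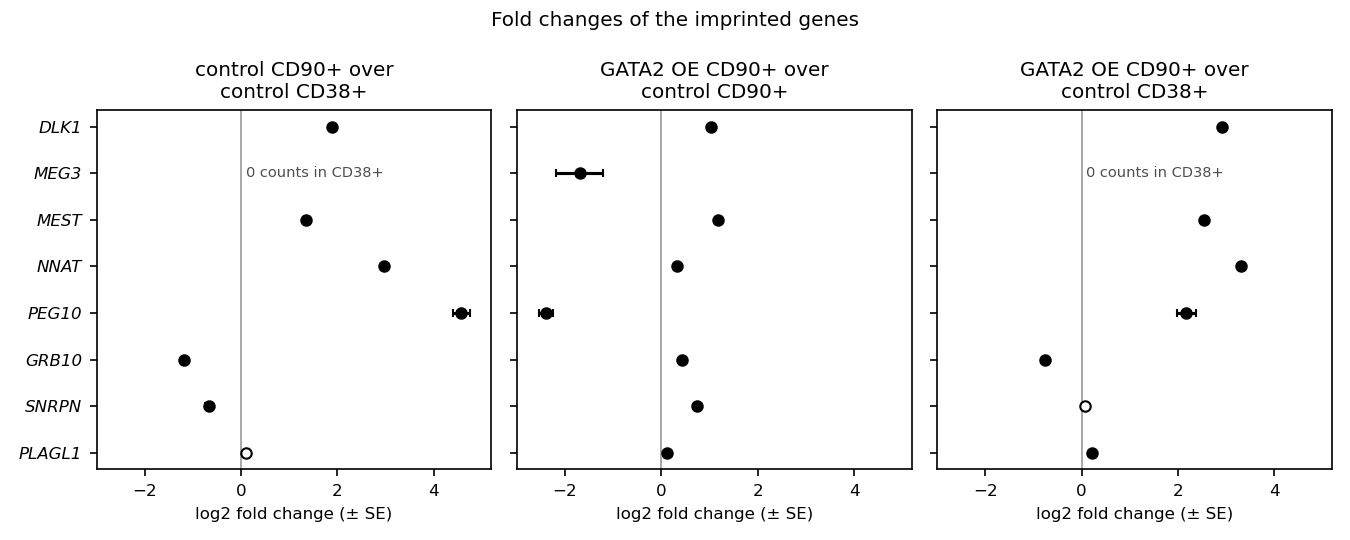
Log2 fold changes of the imprinted genes in the 3 comparisons, from edgeR with SE as whiskers; filled points passed an adjusted p of 0.05, and MEG3 has no point where the CD38+ group had 0 counts. DLK1, MEST and NNAT lie to the right of 0 in all 3 panels, while PEG10 lies at 4.57, -2.40 and 2.17.

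Levels between genes were compared only as CPM per kilobase of merged exon. In overexpressing CD90+ cells this level was 161 for MEST, 105 for DLK1, 39.5 for NNAT, 7.63 for GRB10, 7.40 for SNRPN, 6.88 for PLAGL1, 0.295 for PEG10 and 0.00878 for MEG3. The order was the same in control CD90+ cells except in the middle, where PLAGL1 at 6.35 stood above GRB10 at 5.65 and SNRPN at 4.40. In control CD38+ cells GRB10, at 12.8, came close behind DLK1 at 13.9 and MEST at 27.9, and NNAT, at 4.0, came after SNRPN at 7.01 and PLAGL1 at 5.90. MEST was thus the most abundant per length in all 3 groups, and MEG3 the least.

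Ratios of counts within a library do not depend on depth or scaling, and were formed for 5 pairs of a member and a partner (0.5 added to each count). With 3 libraries against 3, the exact two-sided permutation test cannot go below p = 0.1, which is 0.125 after Benjamini-Hochberg adjustment over the 15 comparisons, so none can pass 0.05. The log2 ratio of MEST to COPG2, a coat protein gene that ends against it on the other strand, was 5.35 ± 0.065 in overexpressing CD90+, 4.45 ± 0.061 in control CD90+ and 3.77 ± 0.086 in control CD38+ cells (SD, n = 3 each). The ratio was thus higher by 0.90 with overexpression and by 0.68 in control CD90+ over control CD38+ cells. In CPM, COPG2 itself had the same order as MEST, with no overlap between the groups. It had 18.4 to 19.7 CPM in overexpressing CD90+, 15.1 to 16.3 CPM in control CD90+ and 9.44 to 10.3 CPM in control CD38+ libraries. The log2 ratio of NNAT to BLCAP was 0.29 ± 0.088 in overexpressing CD90+, 0.12 ± 0.045 in control CD90+ and -3.57 ± 0.013 in control CD38+ cells. BLCAP itself was lower in control CD90+ than in control CD38+ cells (1.65-fold, edgeR adjusted p = 3.26e-10), so host and guest gene differed in opposite directions.

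The log2 ratio of PEG10 to SGCE was 0.15 ± 0.43 in overexpressing CD90+, 0.83 ± 0.072 in control CD90+ and -0.39 ± 0.80 in control CD38+ cells. It did not overlap between the CD90+ groups but did between overexpressing and CD38+ cells (difference 0.54, exact p = 0.4). The log2 ratio of MEG3 to DLK1 was -11.46 ± 0.73 in overexpressing CD90+ and -8.69 ± 0.32 in control CD90+ cells, a difference of -2.76, and in CD38+ cells it is set by the added 0.5 because MEG3 was 0. The log2 ratio of SNRPN to its non-imprinted paralog SNRPB was -4.85 ± 0.076 in overexpressing CD90+, -4.75 ± 0.062 in control CD90+ and -4.61 ± 0.12 in control CD38+ cells. That ratio overlapped between overexpressing and control CD90+ cells (exact p = 0.2) and between the control groups (exact p = 0.3). It did not overlap between overexpressing and control CD38+ cells (difference -0.23, exact p = 0.1). SNRPB was also lowest in control CD90+ cells, at 403 ± 6.13 CPM, against 727 ± 14.0 CPM in overexpressing CD90+ and 584 ± 15.7 CPM in control CD38+ cells.

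**Figure D3:**
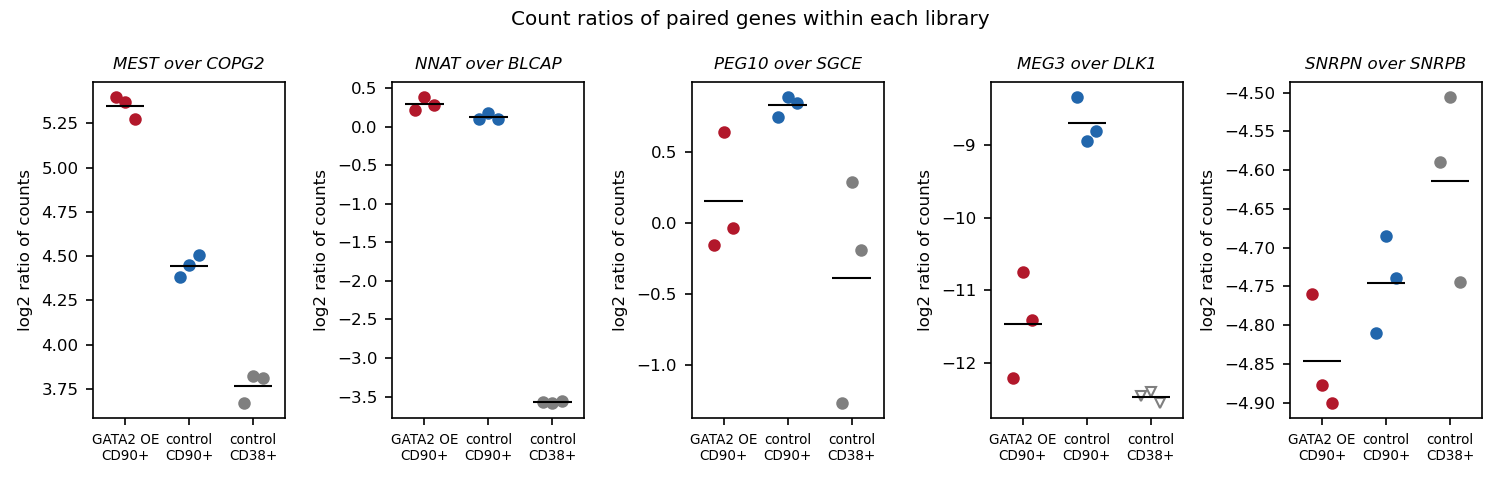
Log2 ratio of the counts of 2 genes within each library, 1 panel per pair with its own axis range, with lines at group means (n = 3). Open triangles are CD38+ libraries with 0 MEG3 counts, whose position is set by the added 0.5; MEST over COPG2 falls in 3 separate bands at 5.35, 4.45 and 3.77.

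Other imprinted genes came from a list of 50, of which 40 were tested, and 24 of the 50 also stand in a list of genes near the members. In control CD90+ against control CD38+ cells, 17 of the 40 were higher and 12 lower, with a median log2 fold change of 0.02, beside 41.1% and 39.3% of all genes and an all-gene median of 0.03. With overexpression against control CD90+ cells, 10 were higher and 23 lower, with a median of -0.76, beside 38% and 39.6% of all genes and an all-gene median of -0.04. Over the alternatives run, the higher count was between 6 and 11, the lower count between 19 and 25 and the median between -1.01 and -0.60. With scaling by total counts alone, 24 were higher and 10 lower in control CD90+ against control CD38+ cells (median 0.43), and 6 were higher and 25 lower with overexpression against control CD90+ cells (median -1.01). Against control CD38+ cells, 14 were higher and 20 lower (median -0.44, beside 0.07 for all genes). The members' own medians in these comparisons were 1.62, 0.38 and 2.35, so between the CD90+ groups the members and the longer list had medians of opposite sign. The 0.38 lies between the values of NNAT and GRB10, which went as low as 0.084 and 0.18 over the alternatives. MEG3, which passed the filter only through the control CD90+ libraries, is part of the members' medians. Of 26 tested genes near the members, 12 were higher and 8 lower in control CD90+ against control CD38+ cells (median 0.03), and 8 were higher and 11 lower with overexpression against control CD90+ cells (median -0.08). These shares lie near the background, and scaling by total counts alone gave 17 higher and 5 lower (median 0.44) in the control comparison and 4 higher and 14 lower (median -0.32) with overexpression. Without the control CD90+ libraries, CALCR and SLC22A3 of the longer list would not have passed the filter on low counts. Nor would COBL of the genes near the members. All had to differ from that group, so they lend no weight to the counts against it.

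IGF2, the paternally expressed fetal growth factor, had the largest rise of that list in control CD90+ over control CD38+ cells, among genes reaching 5 CPM: 46.7 ± 2.28 CPM in overexpressing CD90+, 128 ± 2.36 CPM in control CD90+ and 1.29 ± 0.13 CPM in control CD38+ cells (SD, n = 3 each). It was 2.74-fold lower with overexpression than in control CD90+ cells (edgeR adjusted p = 5.40e-15) and 99.1-fold higher in control CD90+ than in control CD38+ cells (edgeR adjusted p = 5.42e-21), the order shown by PEG10 and SGCE. IGF2R, the receptor that clears IGF2, ran the other way between the control groups, with 7.51 CPM in overexpressing CD90+, 16.6 CPM in control CD90+ and 48.8 CPM in control CD38+ cells. NDN, a Prader-Willi gene like SNRPN, was 2.21-fold higher in overexpressing than in control CD90+ cells (edgeR adjusted p = 2.01e-12). ATP10A, a lipid transporter gene of the same region, was 5.89-fold lower there (edgeR adjusted p = 1.01e-13), and ZDBF2 was 3.10-fold lower (edgeR adjusted p = 1.46e-10). KCNQ1OT1, the antisense noncoding RNA of the KCNQ1 cluster, was between 34.8 and 39.2 CPM in overexpressing CD90+ libraries, between 61.6 and 62.1 CPM in control CD90+ libraries and between 18.9 and 19.1 CPM in control CD38+ libraries.

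**Figure D4:**
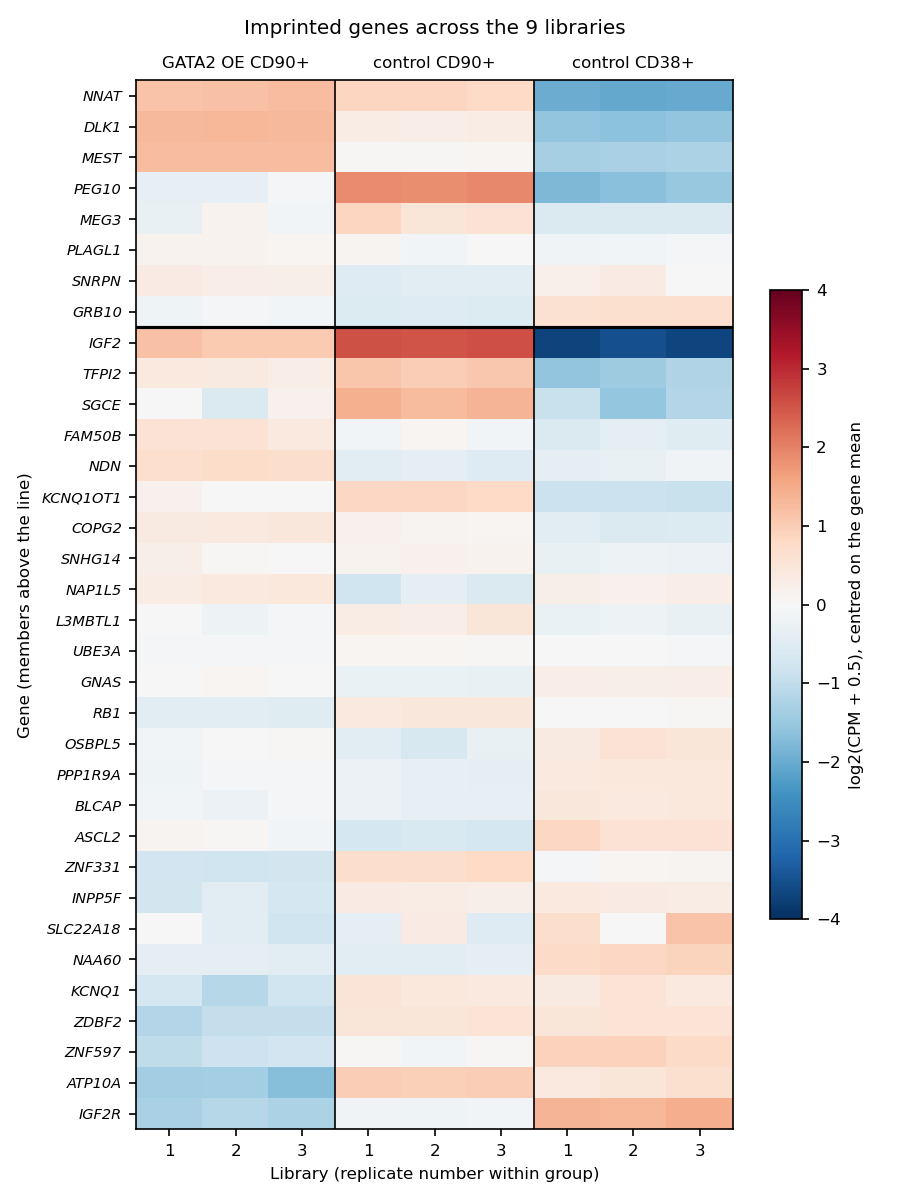
Log2(CPM + 0.5) of imprinted genes in each library, centred on the gene's mean, with the 8 members above the line and 26 other imprinted genes that reached 5 CPM in a group below it. NNAT, DLK1 and MEST are reddest in the GATA2-overexpressing columns, while PEG10, IGF2 and SGCE are reddest in the control CD90+ columns.

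Genes that set, keep or erase imprints were a list of 28, of which 20 were tested, with 8 higher and 8 lower in control CD90+ against control CD38+ cells and the same numbers with overexpression against control CD90+ cells. That is near the share of all genes in each direction, 41.1% and 39.3% between the control groups and 38% and 39.6% with overexpression. The de novo DNA methyltransferases had its largest rises with overexpression over control CD90+ cells, among genes reaching 5 CPM. DNMT3B had 126 CPM in overexpressing CD90+, 52.7 CPM in control CD90+ and 15.4 CPM in control CD38+ cells, and was 2.40-fold higher in overexpressing than in control CD90+ cells (edgeR adjusted p = 1.29e-13). DNMT3A had 107 CPM in overexpressing CD90+, 45.9 CPM in control CD90+ and 19.5 CPM in control CD38+ cells, and was 2.33-fold higher with overexpression (edgeR adjusted p = 1.37e-13). The demethylating enzyme gene TET1 had 7.93 CPM in overexpressing CD90+, 9.29 CPM in control CD90+ and 0.665 CPM in control CD38+ cells, and was 14.0-fold higher in control CD90+ than in control CD38+ cells (edgeR adjusted p = 5.26e-12). TET3 was 2.14-fold lower with overexpression than in control CD90+ cells (edgeR adjusted p = 1.22e-08). With scaling by total counts alone, 14 were higher and 1 lower in control CD90+ against control CD38+ cells, and 5 higher and 12 lower with overexpression against control CD90+ cells.

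Insulin and IGF pathway genes, the signals that GRB10 and IGF2 act on, were a list of 19, of which 18 were tested. With overexpression against control CD90+ cells, 4 were higher and 14 lower, with a median log2 fold change of -1.04, beside 38% and 39.6% of all genes and an all-gene median of -0.04. The higher count was 2 to 4 and the lower count 13 or 14 over the alternatives. Of the 18, IGF1 and GRB14 would not have passed the filter on low counts without the control CD90+ libraries, so both had to come out lower. IGF1 had 0.140 CPM in overexpressing CD90+, 9.57 CPM in control CD90+ and 0.222 CPM in control CD38+ cells. The binding protein gene IGFBP3 had 22.1 CPM in overexpressing CD90+, 45.3 CPM in control CD90+ and 0.437 CPM in control CD38+ cells. IGFBP7 and IGFBP2 were 3.36-fold and 2.04-fold higher in overexpressing than in control CD90+ cells (edgeR adjusted p = 3.93e-14 and 8.87e-14). In control CD90+ against control CD38+ cells, 9 of the 18 were higher and 7 lower, beside 41.1% and 39.3% of all genes. There IGF1 and GRB14 had to come out higher, so they lend no weight to the 9.

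Genes most like each member were those with the smallest root mean square distance of centred log2(CPM + 0.5) over the 9 libraries, among 10620 genes averaging at least 5 CPM. For DLK1 these were APEX1 (0.042), PODXL2 (0.083) and MDFI (0.094). For MEST they were CDCA7 (0.081), DNMT3A (0.086) and WASF1 (0.087). For NNAT they were CNN3 (0.078), TPM2 (0.083) and CCDC8 (0.149), of which CNN3 and TPM2 encode actin-binding proteins. PEG10 was nearest to HSPA6 (0.128), PODXL (0.221) and COL5A2 (0.223). GRB10 was nearest to PPP1CA (0.036), SNRPN to MITD1 (0.055) and PLAGL1 to DCAF10 (0.048). All 9 libraries come from 1 cell line in 3 groups, so these distances describe a pattern over 3 group levels.

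Markers of other cell types differed between the groups as well. The summed level of 15 mesenchymal markers was between 300.3 and 320 CPM in overexpressing CD90+ libraries, between 1246 and 1260 CPM in control CD90+ libraries and between 49.7 and 53.4 CPM in control CD38+ libraries, where POSTN was at 0. That of 15 hepatic endoderm markers was between 120 and 134 CPM in overexpressing CD90+ libraries, between 329 and 331 CPM in control CD90+ libraries and between 12.0 and 14.2 CPM in control CD38+ libraries, where FGA was at 0. Both sums had the order of PEG10, MEG3, SGCE and IGF2. So did 12 neural markers, at 27.2 to 29.1 CPM in overexpressing CD90+ libraries (SOX1 at 0), 47.7 to 49.9 CPM in control CD90+ libraries and 6.38 to 7.46 CPM in control CD38+ libraries (NEUROD1 at 0). Of the mesenchymal markers 14 of 15, and of the hepatic markers 14 of 15, were lower with overexpression than in control CD90+ cells, beside 39.6% of all genes. Of 10 neural markers tested, 6 were lower and none higher. DCX and NEUROD1 of the neural list passed the filter on low counts only through the control CD90+ libraries.

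DLK1, MEST and NNAT had another order, highest with overexpression. The sums of 4 marker lists had it too, but for the trophoblast and pluripotency lists a few genes carried the sum, and more members were lower than higher with overexpression. For 12 megakaryocyte markers the sum was 4671 to 4793 CPM in overexpressing CD90+, 2772 to 2810 CPM in control CD90+ and 809 to 821 CPM in control CD38+ libraries. Of the 12, 7 were higher and 2 lower with overexpression than in control CD90+ cells, beside 38% and 39.6% of all genes. For 14 trophoblast markers it was 122 to 141 CPM in overexpressing CD90+, 32.5 to 33.8 CPM in control CD90+ and 20.4 to 21.6 CPM in control CD38+ libraries. Among them, HSD3B1 was at 0 in control CD90+ libraries, and GCM1, KRT7, HSD3B1 and PAGE4 were at 0 in CD38+ libraries. CGA, the alpha subunit of glycoprotein hormones, made up most of the sum in overexpressing cells, with 97.3 CPM in overexpressing CD90+, 2.66 CPM in control CD90+ and 7.37 CPM in control CD38+ cells. CGB5, a beta subunit of chorionic gonadotropin, had 1497 counts in all in overexpressing CD90+, 16 in control CD90+ and 5 in control CD38+ libraries. Of 10 trophoblast markers tested, 3 were higher (CGA, CGB5 and ERVW-1) and 5 lower with overexpression than in control CD90+ cells. The list's median log2 fold change was -0.45, and 38% and 39.6% of all genes were higher and lower. TFAP2C, CYP19A1 and PAPPA were among those lower, at 0.705, 0.784 and 2.04 CPM in overexpressing CD90+ cells and 3.23, 6.03 and 4.89 CPM in control CD90+ cells. CGB5 and ERVW-1 passed the filter on low counts only through the overexpressing libraries. For 12 endothelial markers the sum was 902 to 950.2 CPM in overexpressing CD90+, 558 to 571 CPM in control CD90+ and 521 to 551 CPM in control CD38+ libraries, where EMCN was at 0. Of the 12, 6 were higher and 4 lower with overexpression than in control CD90+ cells, beside 38% and 39.6% of all genes. PECAM1, ESAM and TIE1 made up most of the endothelial sum in every group. PECAM1 itself was highest in control CD38+ libraries, at 303 to 321 CPM, against 245 to 272 CPM in overexpressing and 174 to 180 CPM in control CD90+ libraries. For 11 pluripotency markers the sum was 205 to 212 CPM in overexpressing CD90+, 137 to 141 CPM in control CD90+ and 28.6 to 31.3 CPM in control CD38+ libraries. POU5F1, the defining pluripotency gene, was at 0 in overexpressing and CD38+ libraries, and SOX2 and L1TD1 were at 0 in CD38+ libraries. DNMT3B, counted above among the genes that set imprints, made up over 125 CPM of that sum in every overexpressing library. Of 9 pluripotency markers tested, 2 were higher (DNMT3B and DPPA4) and 6 lower with overexpression than in control CD90+ cells (median log2 fold change -0.76), among them SOX2, at 0.599 CPM in overexpressing CD90+ and 6.14 CPM in control CD90+ cells, and LIN28A, at 19.4 CPM in overexpressing CD90+ and 33.0 CPM in control CD90+ cells.

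The sum of 12 mast cell and basophil markers was highest in CD38+ cells, as GRB10 was: 742 to 797 CPM in overexpressing CD90+, 251 to 260.0 CPM in control CD90+ and 5602 to 5846 CPM in control CD38+ libraries, with CMA1 at 0 in overexpressing and CD38+ libraries. CLC, at 3529 to 3821 CPM, and HDC, at 1286 to 1321 CPM, made up most of the CD38+ sum. Of 11 tested, 4 were higher and 7 lower in overexpressing than in control CD38+ cells, beside 43.3% and 39.9% of all genes. In control CD90+ against control CD38+ cells, 2 were higher and 8 lower, beside 41.1% and 39.3%. The sum of 12 macrophage markers was 227 to 251 CPM in overexpressing CD90+, 1799 to 1833 CPM in control CD90+ and 997 to 1055 CPM in control CD38+ libraries. CSF1R, at 1055 to 1083 CPM, made up most of the control CD90+ sum. Of the 11 macrophage markers tested, 7 were higher and 4 lower, CD14 among them, in control CD90+ than in control CD38+ cells, beside 41.1% and 39.3% of all genes. The erythroid sum, of 12 markers, was 463 to 543 CPM in overexpressing CD90+, 851 to 876 CPM in control CD90+ and 251 to 260.3 CPM in control CD38+ libraries. With overexpression against control CD90+ cells, 10 of 11 mast cell markers tested were higher and 1 lower, all 11 macrophage markers tested were lower, and 2 of 11 erythroid markers were higher and 8 lower. Of all genes, 38% were higher and 39.6% lower in that comparison. The part of these cell types in the imprinted genes' differences was not tested.

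**Figure D5:**
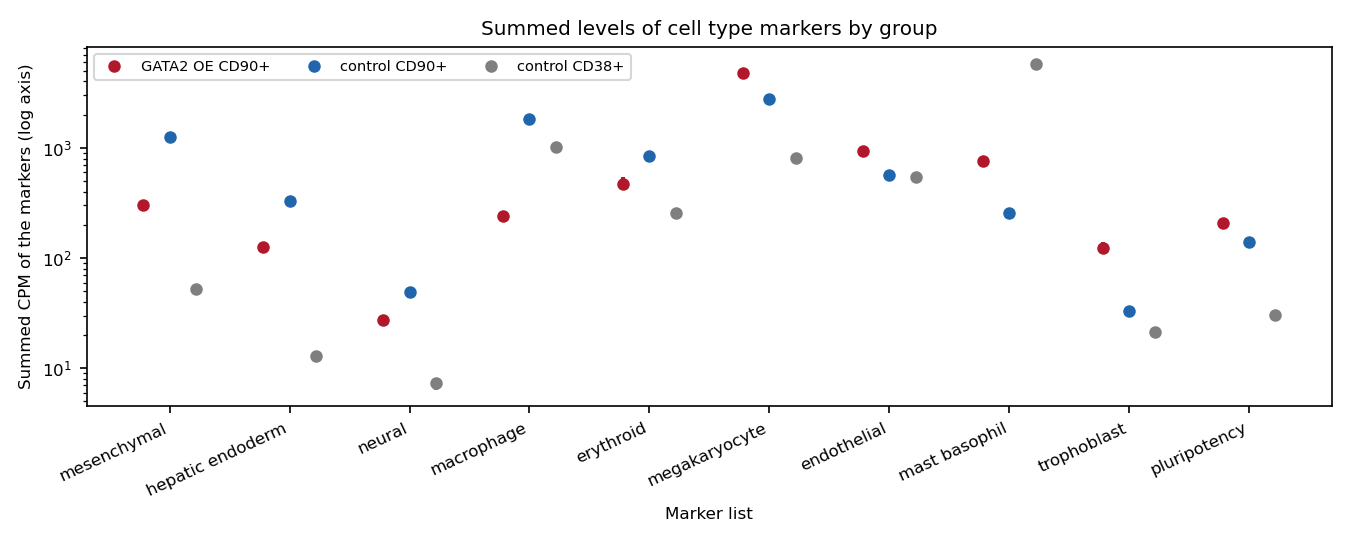
Summed CPM of each marker list on a log axis, with a point at the group median and whiskers over the range of the 3 libraries in GATA2-overexpressing CD90+, control CD90+ and control CD38+ cells. Mesenchymal, hepatic endoderm and neural sums are highest in control CD90+ cells, and megakaryocyte sums are highest with overexpression. The trophoblast and pluripotency sums are also highest there, carried by CGA and CGB5 and by DNMT3B.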

How the data were processed

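RNA from 9 libraries of H1-derived cells was sequenced with strand-specific kits, per the labels' protocols. The values are the authors' deposited counts, whole reads per gene symbol. Per the submitters' processing notes HISAT2, featureCounts and the hg38 build were used, with versions, annotation and strand setting not given in the sources used here. Samples were grouped by the genotype and surface marker in their titles.

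Counts were tested with edgeR 4.0.16 (R 4.3.3): TMM factors, low-count filter by group (minimum count 10, total 15), 1 quasi-likelihood fit over all 9 libraries and Benjamini-Hochberg adjustment over 16232 genes, called under 0.05. The biological coefficient of variation was 6.72%. Chi-square between replicates was 3.96 to 7.85 per degree of freedom, so none was a duplicate. The fit was tested on simulated data, where the share of false calls was above the nominal level in both comparisons with CD38+ cells. Ratios used exact permutation tests (SciPy 1.17.1).

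Members and lists were chosen with earlier results of these data known. Named besides the members are ratio partners, the label checks, each list's 3 largest rises and falls that reach 5 CPM, of which the text gives some, and the 3 genes nearest to each member. Coordinates are GENCODE 29, and start windows are RefSeq's GRCh38.p14. Same-numbered libraries did not deviate together (r between -0.061 and 0.0149), so numbers were not taken as pairs. Alternatives were other scalings, filters, DESeq2 1.42.0, limma 3.58.1 voom, fits of 2 groups, a replicate block and leaving out each library.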

Additional observations from a re-analysis of the deposited data

How the results depend on the processing

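Over the alternatives, genes called were between 11722 and 14023 for control CD90+ over control CD38+, between 11430 and 13125 for overexpressing over control CD90+, and between 12151 and 14236 for overexpressing over control CD38+. Members called were 7 or 8, 6 to 8 and 6 to 8 of 8 in those comparisons. Leaving out each library gave 12713 to 13398, 12142 to 12820 and 13280 to 13532 genes, and 7 to 8, 7 to 8 and 7 members. With the replicate number as a block, 12889, 12384 and 13347 genes and 7, 8 and 7 members were called. Of 428 member values, 405 kept direction and side of the threshold, 9 lost the call, 13 gained one and 1 reversed: PLAGL1, overexpressing over control CD90+, at -0.13 with scaling by total counts alone (edgeR adjusted p = 0.0168). MEG3 was not tested with a filter of 1 CPM, or in the fit of overexpressing and control CD38+ libraries alone. None of the 5 ratios' differences reversed. The ratio of H19 to IGF2 was not run, because H19 was not analysed here.

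For the named context genes and the gene lists the same alternatives were added after seeing the data: for the genes, 1189 of 1200 values kept direction and side, and 2 reversed. These were HELLS, control CD90+ over control CD38+, at 0.0064 with scaling by total counts alone, and PHLDA2 in the same comparison at -0.20 without control CD90+ replicate 2, beside up to 2.26 without another library. The depth of 37500192 counts or more leaves MEG3, at 43 counts or fewer per library, as the least precise member.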

Other observations

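PHLDA2, a maternally expressed gene that restrains placental growth, is below the level set for naming and was chosen after its values were seen. It had 14, 12 and 25 counts in overexpressing CD90+ libraries, 42, 452 and 41 counts in control CD90+ libraries, and 38, 31 and 40 counts in control CD38+ libraries. Only control CD90+ replicate 2 was high. In control CD90+ over control CD38+ cells PHLDA2 was called at a log2 fold change of 1.80 (edgeR adjusted p = 0.0195), and without that library the log2 fold change was -0.20 (edgeR adjusted p = 0.631). That call was also lost with the replicate number as a block (1.22, edgeR adjusted p = 0.0861), with limma voom (0.97, adjusted p = 0.252) and without control CD38+ replicate 2 (1.71, edgeR adjusted p = 0.0582). In overexpressing over control CD90+ cells the log2 fold change of -2.87 (edgeR adjusted p = 0.00198) came to -0.86 without that library (edgeR adjusted p = 0.0512) and to -2.09 with limma voom (adjusted p = 0.0614). DESeq2 gave no adjusted p for PHLDA2 in any comparison.

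HYMAI, a noncoding RNA read from the same imprinted start as PLAGL1, also lies below that level and was chosen after its values were seen. It had 22, 16 and 14 counts in overexpressing CD90+ libraries, 44, 60 and 63 counts in control CD90+ libraries, and 94, 108 and 93 counts in control CD38+ libraries. The 3 groups did not overlap, and HYMAI was 2.33-fold lower with overexpression than in control CD90+ cells (edgeR adjusted p = 5.05e-04) and 2.39-fold lower in control CD90+ than in control CD38+ cells (edgeR adjusted p = 6.55e-05). Both calls were kept under all 18 alternatives, added after seeing the data. PLAGL1 itself was 1.08-fold higher, not lower, in each of these comparisons. With overexpression its direction flipped under scaling by total counts alone, and between the control groups it did not pass (edgeR adjusted p = 0.0506). Of the exon bases of PLAGL1, 289 are shared with HYMAI on the same strand.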
